A study of Mus musculus with 4 samples.

Results

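Cathepsins are the proteases of the lysosome, and cystatin C is the main secreted inhibitor of the cysteine cathepsins. Their messenger RNAs were followed in RNA-seq libraries of primary mouse astrocytes. The 10 genes were taken from a list of names and matched exactly to the gene symbols of the authors' table, in which all 10 were found among 25393 listed genes. All 10 also passed the filter on low values, a mean of at least 1 normalized count. They are 7 cysteine cathepsins (Ctsb, Ctsc, Ctsh, Ctsk, Ctsl, Ctss and Ctsz), the serine carboxypeptidase Ctsa, the aspartic protease Ctsd, and Cst3, which encodes cystatin C. The cells came from cortex and hippocampus of untreated C57BL/6 pups at postnatal day 1, with 2 libraries labelled wild type (WT) and 2 labelled tet1-/- (labelled KO). Each isolation pooled 2 mice, and the cells grew for about 7 days, were shaken at 260 rpm to remove loosely attached cells and were kept for another 24 h. The deletion is constitutive, so any other cell type in the flask also carries it. The paper calls its RNA-seq repeats biological and describes more of them per genotype than the 2 analysed here. Nothing in the labels says that libraries of 1 group came from separate flasks, and p-values then measure only the spread between these libraries.

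Cathepsins are made as inactive precursors, carried to the lysosome by mannose 6-phosphate receptors and activated by the low pH there. Cathepsins B and L are broad endopeptidases found in nearly all cells, cathepsins H, C and Z trim the ends of proteins, and cathepsin D is the major aspartic protease of the lysosome. Cathepsin S keeps its activity at neutral pH, cleaves the invariant chain of MHC class II and is in the brain mostly a protease of microglia, while cathepsin K is the collagen-degrading protease of osteoclasts. Cystatin C is among the proteins that astrocytes secrete in large amounts. It blocks the cysteine cathepsins, but neither cathepsin D nor cathepsin A.

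Sequence upstream of the start site is shown for Ctss and Ctsz, which had large differences between the labels, and for Ctsk, the neighbour of Ctss on chromosome 3. Each is the 250 bases before the RefSeq start site on GRCm38.p6, written 5′ to 3′ along the gene, and capitals mark a match to 1 of the 4 motifs searched.
Ctss, chr3:95526536-95526785, plus strand: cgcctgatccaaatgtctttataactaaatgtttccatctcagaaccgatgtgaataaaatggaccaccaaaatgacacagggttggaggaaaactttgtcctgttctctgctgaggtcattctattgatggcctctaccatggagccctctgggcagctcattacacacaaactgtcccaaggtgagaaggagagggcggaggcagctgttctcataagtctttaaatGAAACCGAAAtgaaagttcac
Ctsk, chr3:95498960-95499209, plus strand: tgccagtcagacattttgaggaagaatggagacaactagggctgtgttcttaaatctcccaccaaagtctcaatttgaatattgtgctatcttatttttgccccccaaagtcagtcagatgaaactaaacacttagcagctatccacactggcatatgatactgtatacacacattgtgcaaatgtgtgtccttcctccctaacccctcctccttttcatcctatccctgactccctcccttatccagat
Ctsz, chr2:174439040-174439289, minus strand: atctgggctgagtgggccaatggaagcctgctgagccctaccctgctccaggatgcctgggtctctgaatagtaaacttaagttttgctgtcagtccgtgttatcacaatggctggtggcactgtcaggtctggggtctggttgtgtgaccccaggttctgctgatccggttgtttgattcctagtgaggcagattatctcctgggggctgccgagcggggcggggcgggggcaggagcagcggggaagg

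The motifs were searched on both strands of 9 such windows, which covered 8 of the 10 genes. A pair of GAAA blocks with any 2 bases between them, the core of the interferon-stimulated response element, was found in the Ctss window alone, from 21 to 12 bases before the start site, and in 2.98% of all 32851 RefSeq windows of this length. CACGTG, the core of the element bound by the lysosomal regulator Tfeb, was found in the windows of Ctsd (at 2 places), of Ctsl and of 1 of the 2 start sites of Ctsa, and in 6.02% of all windows. The Ctsl window and that Ctsa window lie wholly within the annotated gene, and the window of the other Ctsa start site held no CACGTG. The longer palindrome with GT before and AC after this core, which contains it, was in none of the 9 windows and in 0.240% of all. GAGGAAGT, a sequence of the kind bound by the myeloid factor PU.1, was found in the Ctsc window and in 2.44% of all. The Ctsd window held 27 CpG dinucleotides, that of Ctss 4 and that of Ctsk 0, against a median of 6. A match describes the letters of the window and does not show that a factor binds there.

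The libraries held between 18749610 and 22673555 reads on genes. The deposited values, called normalized counts here, are reads on a gene after division by the library's size factor, and a gene with 3 reads, taken as the detection floor, has 2.70 to 3.21 of them. Tet1, the targeted gene, had 266 and 121 normalized counts in the WT pair, against 173 and 463 in the pair labelled KO. Its count over the whole gene was thus not lower in the libraries labelled KO. The paper reports hardly any Tet1 messenger RNA in its knockout astrocytes, and less of the DNA mark hydroxymethylcytosine by dot blot. A whole-gene count cannot show whether a deleted part is absent, because a transcript lacking some exons can still be counted. Xist had 8.54 and 0.92 in the WT pair, against 2896 and 13367 in the pair labelled KO, and sex and label cannot therefore be told apart. Every direction below rests on the labels. All 12 astrocyte markers looked at were detected in each library, Gfap at 58004 and 67297 normalized counts in WT and, in the pair labelled KO, at 174853 and 9945. Of 17 listed microglial markers, 15 were lower in the libraries labelled KO at an unadjusted p under 0.05 (limma), where 9.18% of all tested genes were. The values of these markers are set beside the cathepsins further down.

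The cysteine cathepsins Ctss, Ctsh, Ctsz and Ctsb had less RNA in both libraries labelled KO than in both WT libraries, with WT means 17.0, 5.44, 4.37 and 2.90 times those of the libraries labelled KO. The ubiquitous proteases Ctsl and Ctsd had nearly equal means in the groups, and Ctsa and Ctsc overlapped between them. Cst3 was highest in labelled KO replicate 1 and lowest in labelled KO replicate 2, as was Ctsl over a much narrower range. Ctsk was close to the detection floor. With limma on log2(normalized count + 1), 4 of the 10 genes were lower at an unadjusted p under 0.05, where 9.18% of the 22094 tested genes were, and 0 were higher, where 4.54% were. After Benjamini-Hochberg adjustment 0 of the 10 passed 0.05 in limma, as did 0% of all genes, and 0 passed in edgeR's quasi-likelihood test on the recovered reads. At an unadjusted p under 0.05 edgeR had 4 of the 10 lower, where 8.14% of all genes were, and 0 higher, where 4.23% were. DESeq2 on the same reads called 3 lower (Ctss, Ctsh and Ctsz) at an adjusted p under 0.05, where 3.63% of all genes were, and 0 higher, where 1.29% were. Without WT replicate 2 the limma log2 fold changes of Ctss, Ctsh, Ctsz and Ctsb were -3.09, -2.34, -1.76 and -1.94. Without WT replicate 1 they were -4.67, -2.61, -2.44 and -1.41. How many of the 10 passed a threshold depended on the library left out, as given in the section on processing. The median log2 fold change was -1.01 over the 10 genes and -0.07 over all tested genes.

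**Figure D1:**
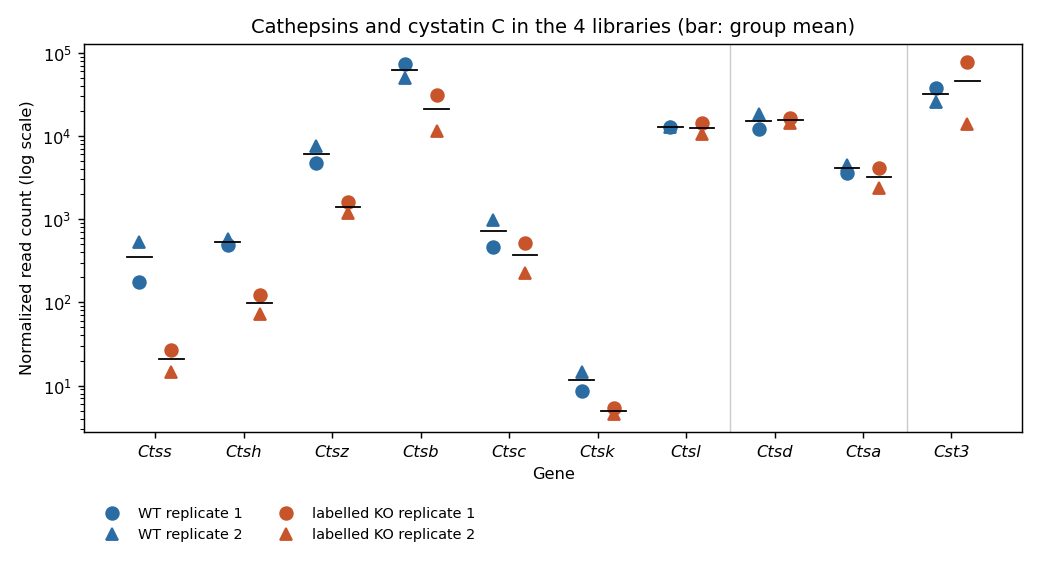
Normalized read count (log axis) of the 10 genes in each library, with circles for replicate 1, triangles for replicate 2, blue for WT, orange for labelled KO and a bar at the group mean. Grey lines separate cysteine cathepsins, other proteases and cystatin C. Ctss, Ctsh, Ctsz, Ctsb and Ctsk show no overlap between the groups, whereas Ctsl and Ctsd lie at similar heights in all 4 libraries and Cst3 is split between 78276 and 13870.4 in the pair labelled KO.

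Groups did not overlap, with lower values in the libraries labelled KO, for 5 of the 10 genes, where 25.4% of all tested genes showed this, and in the other direction for 0, where 22.5% did. After quantile normalization the median over all genes moved to 0.08 on the log2 scale and the genes at an unadjusted p under 0.05 were split into 1490 lower and 1417 higher in place of 2028 and 1004. The log2 fold changes of Ctss, Ctsh, Ctsz and Ctsb were then -3.51, -2.23, -2.23 and -1.64.

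Ctss (ENSMUSG00000038642; chr3 of GRCm38, from 95526786 to 95556403, plus strand) encodes cathepsin S. Counts after normalization were 175 and 527 in the WT pair, against 26.8 and 14.4 in the pair labelled KO, from 164, 573, 25 and 16 reads. The lower WT library was above the higher library labelled KO by more than the 3.01-fold difference between the WT libraries themselves. The means were 351 ± 249 (SD, n = 2) and 20.6 ± 8.72 (SD, n = 2). The fitted log2 difference was -3.88 (standard error, SE, 0.71, limma adjusted p = 0.161). Taken library by library, the 4 log2 differences ran from -5.10 to -2.66. DESeq2 gave -4.10 with an adjusted p of 5.39e-06, and over all settings with 4 libraries the adjusted p lay between this and 0.395 (edgeR with a replicate block). Without WT replicate 2 the DESeq2 adjusted p was 0.177, and it was at most 0.000177 without any other library. The genes with the most similar profile over the 4 libraries, by Euclidean distance of centred log2 values among 12859 genes with a mean of at least 50, were Sema4a (distance 0.22), Sulf1 (0.29) and the microglial chemokine receptor Cx3cr1 (0.40). The processed pseudogene Hmgb1-ps5 overlaps Ctss on the same strand and had at most 2.13 normalized counts, under the floor.

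Ctsk (ENSMUSG00000028111; chr3, from 95499256 to 95509362, plus strand) ends 17423 bases before Ctss begins, and no other protein-coding gene lies between them. Its normalized counts were 8.54 and 14.7 in the WT pair, against 5.35 and 4.51 in the pair labelled KO, which stand for 8, 16, 5 and 5 reads. Both libraries labelled KO were below both WT libraries, at a depth where counting error alone is large. The log2 fold change of -1.05 (SE 0.73, limma adjusted p = 0.574) did not pass. On the other side of Ctsk, Arnt had a log2 fold change of 0.30.

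Ctsh (ENSMUSG00000032359; chr9, from 90054152 to 90076089, plus strand) encodes cathepsin H, an aminopeptidase. The WT libraries held 483 and 583 normalized counts, those labelled KO 123 and 73.0. The WT libraries were 1.21-fold apart and those labelled KO 1.69-fold, both small beside the gap between the groups. The means were 533 ± 70.5 (SD, n = 2) and 98.1 ± 35.4 (SD, n = 2). limma put the log2 fold change at -2.47 (SE 0.42, limma adjusted p = 0.150). DESeq2 gave an adjusted p of 0.000199, which became 0.125 without WT replicate 1 and 0.239 without WT replicate 2. Over all settings with 4 libraries the adjusted p lay between 0.000199 (DESeq2) and 0.389 (edgeR with a replicate block). No annotated gene overlaps Ctsh, and its neighbours Rasgrf1 and Morf4l1 had log2 fold changes of -0.04 and -0.19.

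Ctsz (ENSMUSG00000016256; chr2, from 174427493 to 174439039, minus strand) encodes cathepsin Z, a carboxypeptidase. Counts after normalization were 4697 and 7517 in the WT pair, against 1601 and 1196 in the pair labelled KO. Both libraries labelled KO were below both WT libraries, and the replicates of each group lay closer to each other than to the other group. The means were 6107 ± 1994 (SD, n = 2) and 1399 ± 287 (SD, n = 2). This gave a log2 fold change of -2.10 (SE 0.36, limma adjusted p = 0.150). In DESeq2 the adjusted p was 0.000573, and it was 0.0672 without WT replicate 1 and 0.378 without WT replicate 2. Settings with 4 libraries gave adjusted p-values from 0.000573 (DESeq2) to 0.395 (edgeR with a replicate block). Nelfcd, on the opposite strand, shares 10 bases with Ctsz and had a log2 fold change of -0.38.

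Ctsb (ENSMUSG00000021939; chr14, from 63122462 to 63145923, plus strand) encodes cathepsin B and was the most abundant of the proteases per length in WT. The WT libraries held 72580.5 and 50256 normalized counts, those labelled KO 30745 and 11621. Every library labelled KO was below every WT library, but the 2 libraries labelled KO were 2.65-fold apart. The means were 61418 ± 15786 (SD, n = 2) and 21183 ± 13523 (SD, n = 2). On the log2 scale the difference was -1.68 (SE 0.57, limma adjusted p = 0.316, unadjusted p = 0.0288). It was -2.38 without labelled KO replicate 1 and -0.97 without labelled KO replicate 2. The DESeq2 adjusted p of 0.123 became 1.75e-06 without labelled KO replicate 1 and was 0.0403 with a replicate block, and over all settings with 4 libraries it reached 0.495 (edgeR with that block). Ctsb overlaps Fdft1, a gene of cholesterol synthesis on the opposite strand, over 774 bases, and 12.1% of the 50-base stretches of its transcripts occur there too. Fdft1 was higher in both libraries labelled KO, with 1807 and 1435 normalized counts in the WT pair, against 3678 and 3192 in the pair labelled KO. Whether the counting used strand is not given in the sources used here, and reads from the shared bases could then not be told apart. The next protein-coding gene after Ctsb, the DNA glycosylase Neil2, begins 36519 bases further on and had 172 and 122 normalized counts in the WT pair, against 27.8 and 16.2 in the pair labelled KO.

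Ctsc (ENSMUSG00000030560; chr7, from 88278085 to 88310888, plus strand) encodes the dipeptidyl peptidase that activates granule proteases of immune cells. Its normalized counts were 466 and 969 in the WT pair, against 516 and 224 in the pair labelled KO. Labelled KO replicate 1 was above WT replicate 1, so the groups overlapped. The fitted log2 difference was -0.98 (SE 0.57, limma adjusted p = 0.502), and it ran from -1.58 to -0.38 with 1 library left out. DESeq2 without labelled KO replicate 1 gave an adjusted p of 0.0271, against 0.538 with all libraries.

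Ctsl (ENSMUSG00000021477; chr13, from 64359337 to 64370890, minus strand) encodes cathepsin L and differed least of the cysteine cathepsins. Counts after normalization were 12869.8 and 12777 in the WT pair, against 14406 and 10621 in the pair labelled KO. The WT libraries lay between those labelled KO. limma put the log2 fold change at -0.05 (SE 0.32, limma adjusted p = 0.957), and the 4 differences between libraries ran from -0.28 to 0.17. Of the 50-base stretches of its annotated transcripts, 26.3% also occur in transcripts of 130 other genes. Among these are the antisense gene Gm47123 and the processed pseudogene Gm49230, which overlap it. Its count is uncertain for this reason, by an amount that was not measured.

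**Figure D2:**
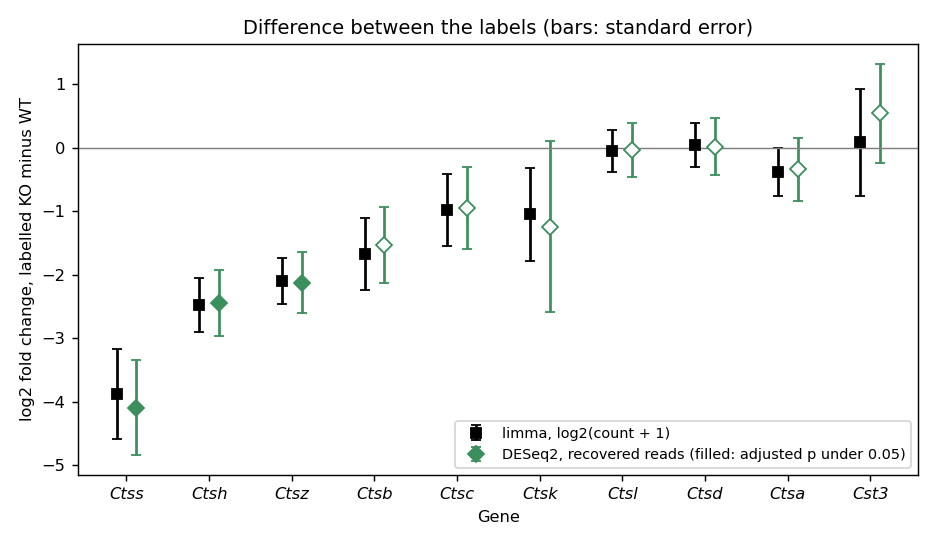
Log2 fold change, labelled KO minus WT, of the 10 genes, with black squares for limma on log2(normalized count + 1) and green diamonds for DESeq2 on the recovered reads. Bars are standard errors and filled diamonds have a DESeq2 adjusted p under 0.05, which holds for Ctss, Ctsh and Ctsz, the 3 genes farthest from 0, whereas Ctsl, Ctsd and Cst3 lie close to 0 in limma.

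The proteases of the other classes showed no separation of the groups. Ctsd (ENSMUSG00000007891; chr7, from 142375911 to 142388038, minus strand), which encodes cathepsin D, had 12226 and 18206 normalized counts in the WT pair, against 16301 and 14454.5 in the pair labelled KO. Both libraries labelled KO fell between the WT libraries. The log2 fold change of 0.04 (SE 0.35, limma adjusted p = 0.971) was -0.02 in edgeR and -0.10 after quantile normalization. The gene Gm49369 spans part of Ctsd on the same strand and shares 32.4% of the 50-base stretches of the Ctsd transcripts. Ctsa (ENSMUSG00000017760; chr2, from 164832873 to 164841032, plus strand) encodes cathepsin A, also called protective protein because it stabilises lysosomal galactosidase and sialidase. Its normalized counts were 3632 and 4517 in the WT pair, against 4117 and 2337 in the pair labelled KO, with a log2 fold change of -0.38 (SE 0.38, limma adjusted p = 0.686). Labelled KO replicate 2 alone was below both WT libraries, and without it the value was 0.02. Pltp, on the opposite strand, overlaps Ctsa over 1515 bases and had 4784 and 6340.4 normalized counts in the WT pair, against 3602 and 1218 in the pair labelled KO.

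Cst3 (ENSMUSG00000027447; chr2, from 148871722 to 148875692, minus strand) was the most abundant of the 10 genes per length and ranked 13 among all 25393 listed genes. The WT libraries held 37244 and 25947 normalized counts, those labelled KO 78276 and 13870.4. The libraries labelled KO enclosed the WT libraries from both sides and were 5.64-fold apart. The means were 31595 ± 7988 (SD, n = 2) and 46073 ± 45541 (SD, n = 2), and the log2 fold change was 0.08 (SE 0.84, limma adjusted p = 0.977). The sign depended on the library used. DESeq2 gave -1.16 (adjusted p = 0.0484) without labelled KO replicate 1 and 1.31 (adjusted p = 0.0247) without labelled KO replicate 2, against 0.54 (adjusted p = 0.853) with all 4. The most similar profiles over the 4 libraries were those of Kcnc2 (distance 0.28), Rcan2 (0.28) and Gm13375 (0.31). No annotated gene overlaps Cst3.

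Levels were compared between genes per length, as FPKM, that is read counts scaled by gene length and by the library's reads on genes. The length was the authors' value for each gene, from 1266 bases for Cst3 to 6489 for Ctsl. Which transcripts the cells made was not looked at, so the order, sums, shares and ratios between genes depend on these lengths. Ctsl, for example, had 12062 reads in WT replicate 1 and Ctsz 4402, yet Ctsl was lower per length. By the mean over the 4 libraries the order was Cst3 (1447 FPKM), Ctsb (331), Ctsd (312), Ctsz (126), Ctsl (93.7), Ctsa (37.1), Ctss (6.62), Ctsc (4.48), Ctsh (3.41) and Ctsk (0.26). The ranges of neighbours in this order overlapped for Cst3 with Ctsb, Ctsb with Ctsd, Ctsz with Ctsl, Ctss with Ctsc and Ctsc with Ctsh, and did not overlap for the other neighbours. Cst3 was nevertheless above Ctsb in 4 of 4 libraries, while Ctsb was above Ctsd in the WT libraries only. Ctsb was 2.31 and 1.07 times Ctsd in WT and 0.73 and 0.31 times Ctsd in the pair labelled KO. Ctsz was 0.63 and 0.67 times Ctsd in WT and 0.16 and 0.14 times in the pair labelled KO, and thus closely alike within each group.

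Summed FPKM of the 7 cysteine cathepsins was 878 and 776 in the WT pair, against 386 and 221 in the pair labelled KO. The group means were 827 ± 71.8 (SD, n = 2) and 303 ± 117 (SD, n = 2), and both libraries labelled KO were below both WT libraries. Ctsb made up 68.3% and 51.3% of this sum in WT and 59.4% and 43.1% in the pair labelled KO. The part of Ctsl was 11.3% and 12.2% in WT against 26.0% and 36.7% in the pair labelled KO, although its own level was alike. Ctsc, Ctsh, Ctsk and Ctss together were at most 4.29% of the sum in any library. Cst3 was 1.68 and 1.27 times this sum in WT and 7.23 and 2.46 times in the pair labelled KO, higher in both of these than in both WT libraries. No test was made of these ratios. The smallest two-sided p of an exact permutation of 2 against 2 libraries is 0.333.

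**Figure D3:**
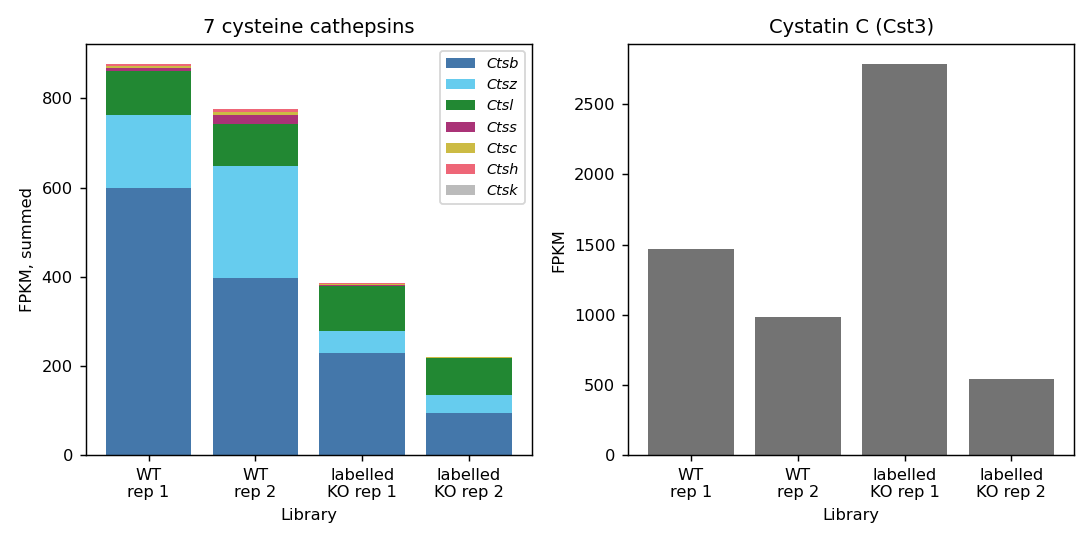
Left, FPKM of the 7 cysteine cathepsins stacked for each library, and right, FPKM of Cst3 in the same libraries. The stacks reach 878 and 776 in the WT pair, against 386 and 221 in the pair labelled KO, with a Ctsl layer of similar height in all 4, while Cst3 ranges from 543 in labelled KO replicate 2 to 2790.1 in labelled KO replicate 1.

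The other lysosomal lists had medians closer to that of all genes. Of 38 lysosomal hydrolases and related enzymes, 4 were lower and 1 was higher in the libraries labelled KO at an unadjusted p under 0.05 (limma), with a median log2 fold change of -0.19. These shares, 10.5% and 2.63%, were near those of all tested genes (9.18% and 4.54%). The largest of these changes were in the dipeptidyl peptidase Dpp7 (811 and 837 normalized counts in WT, 341 and 261 in the pair labelled KO), the mannosidase Manba (-1.30 on the log2 scale), the glycogen-degrading glucosidase Gaa (-1.19), and the acid ceramidase Asah1, which was higher (1.06). Dpp7 was the only one of the 38 that DESeq2 called (adjusted p = 0.0239). Lgmn, the legumain that processes cathepsins, had 3750.4 and 4885 normalized counts in the WT pair, against 5860.4 and 1370.01 in the pair labelled KO, and is named here after its values were seen. Of 31 lysosomal membrane and proton pump genes, 2 were lower (6.45%) and 1 was higher (3.23%) at that threshold, shares also near those of all genes, with a median of 0.02. The lower ones were Laptm5, a lysosomal protein of blood-derived cells (209 and 529 against 35.3 and 34.3 normalized counts), and Cln3 (-1.06), and the higher one was the pump subunit Atp6v0a1 (1.07). Of 13 genes for sorting receptors, activator proteins and Tfeb-type factors, 0 passed an unadjusted p under 0.05 in limma, 0 did so in edgeR, and 0 passed the adjusted threshold in DESeq2. Their most abundant members were the saposin precursor Psap (log2 fold change -0.73) and the endocytic receptor Lrp1 (-0.60).

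**Figure D4:**
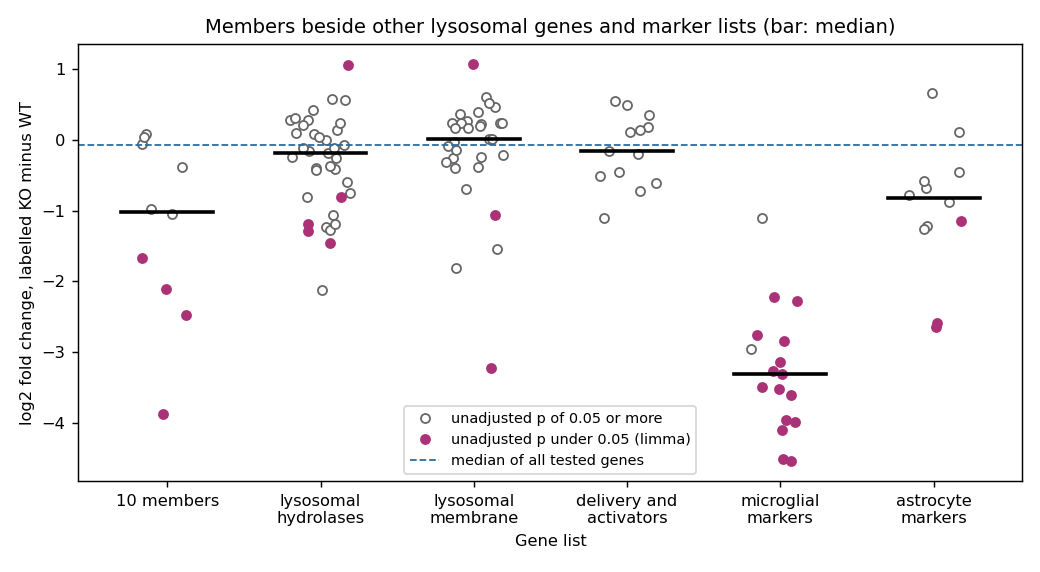
Log2 fold change, labelled KO minus WT, of single genes in 6 lists, with filled points for an unadjusted limma p under 0.05, a bar at the list's median and a dashed line at the median of all tested genes (-0.07). The medians are -1.01 for the 10 cathepsin and cystatin genes, -0.19, 0.02 and -0.16 for the other lysosomal lists, -3.31 for microglial markers and -0.83 for astrocyte markers.

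Microglial markers were lower in the libraries labelled KO together with the 4 cathepsins. Their summed level was 100.01 and 510.2 FPKM in WT and 10.2 and 17.2 in the pair labelled KO. In these bulk libraries fewer cells of a type and less RNA per cell cannot be told apart. All 17 listed markers had a negative log2 fold change, as did 11857 of the 22094 tested genes. Of the 17, 16 were lower without overlap between the groups, where 25.4% of all tested genes were, and Tmem119 overlapped. Mrc1 was at 0 in both libraries labelled KO and P2ry12 at 0 in replicate 1, but in WT both genes had only 3.20 to 6.40 normalized counts, at or just above the floor. The 4 largest changes were in C1qa (-4.54), Lyz2 (-4.51), C1qc (-4.10) and Trem2 (-3.99). Lyz2 alone made up 50.1 and 405 FPKM of the WT sums. The marker sum was higher in WT replicate 2, as were Ctss, Ctsz and Ctsh, whereas Ctsb was higher in WT replicate 1. Among the libraries labelled KO the sum was higher in replicate 2 through Lyz2 (2.94 and 12.2 FPKM). Without Lyz2, left out after the values were seen, the sum of the other 16 markers was 49.9 and 105 FPKM in the WT pair, against 7.25 and 5.01 in the pair labelled KO. Ctss, Ctsh, Ctsz and Ctsb were each higher in labelled KO replicate 1 than in replicate 2, as were 9 of the 17 markers. The part of microglia in the cathepsin differences was not tested.

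Astrocyte markers had a summed level of 2236 and 2082 FPKM in WT and of 3303 and 506 in the pair labelled KO, beside 1471, 983, 2790.1 and 543 FPKM for Cst3. Gfap alone was 687 and 765 FPKM in the WT pair, against 1871 and 117 in the pair labelled KO. Without it, again left out after the values were seen, the sum was 1549, 1317, 1432 and 389 FPKM. WT replicate 1 was then highest, and the order of libraries was no longer that of Cst3, but labelled KO replicate 2 was still lowest. All 12 markers, like Cst3, were higher in labelled KO replicate 1 than in labelled KO replicate 2. Of the 12 markers, 3 were lower at an unadjusted p under 0.05 (limma), namely Ndrg2 (-2.64), the glutamate transporter Slc1a2 (-2.58) and the transcription factor Sox9 (-1.15), and 0 were higher. Among all tested genes, 9.18% were lower and 4.54% higher at this threshold. Fibroblast markers reached 113 and 323 FPKM in the libraries labelled KO against 32.6 and 64.2 in WT, of which Fn1 alone was 81.6 and 300.6 against 7.28 and 28.4. Without Fn1 the sum of the other 9 was 25.3 and 35.9 FPKM in the WT pair, against 31.8 and 22.6 in the pair labelled KO. Of the 10, Fn1 and Col1a2 (1.42 on the log2 scale) were higher and Dcn (-2.12) was lower at an unadjusted p under 0.05 (limma), beside the 4.54% higher and 9.18% lower among all tested genes. Neuronal markers summed to between 19.3 and 29.7 FPKM, oligodendrocyte markers to between 80.8 and 143, and endothelial markers to at most 1.45. At the same threshold 2 of 6 tested neuronal markers were higher, Tubb3 (1.80) and Dcx (2.25, with at most 7.49 normalized counts), and 0 were lower. Of 8 oligodendrocyte markers, 1 was lower, Cspg4 (-2.35), and 0 were higher. Of 5 endothelial markers, 0 passed. The part of these cell types in the values of the cathepsins was not tested.

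**Figure D5:**
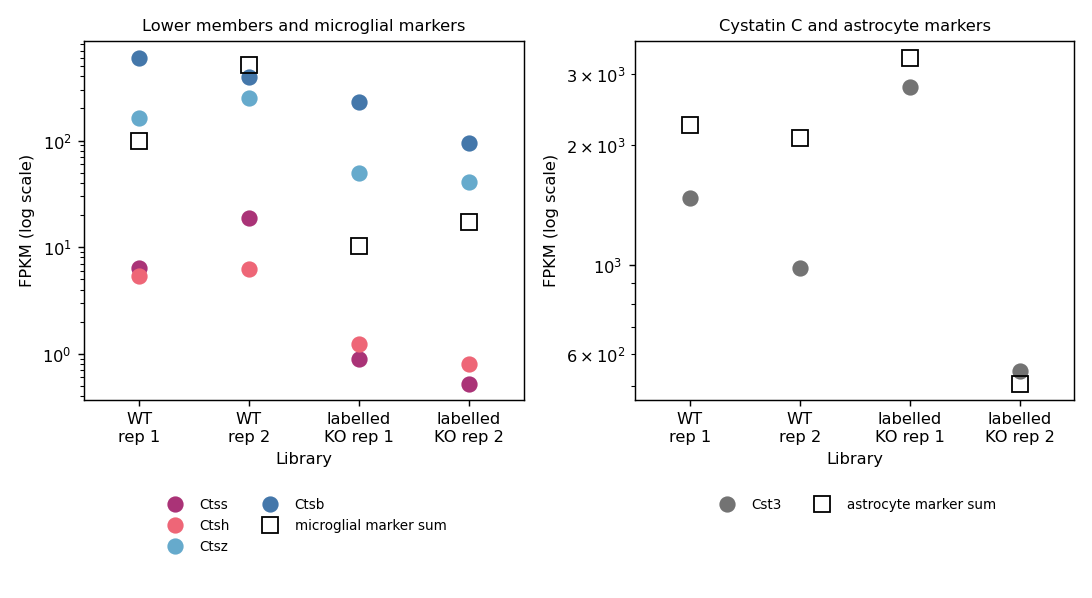
FPKM (log axis) in each library of Ctss, Ctsh, Ctsz and Ctsb beside the summed FPKM of 17 microglial markers (left), and of Cst3 beside that of 12 astrocyte markers (right). The microglial sum is 100.01 and 510.2 in WT and 10.2 and 17.2 in the pair labelled KO, and the astrocyte sum, like Cst3, is highest in labelled KO replicate 1, which holds for the sum only with Gfap (1871 of 3303 FPKM there). Labelled KO replicate 2 has the lowest astrocyte sum with and without Gfap.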

How the data were processed

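Paired-end Illumina reads had been filtered by the authors, and the submitters' processing notes name mm10 as the build. The aligner, counting program and annotation release are not given in the sources used here. The authors deposited their signal values under the name FPKM. These are counts of reads that were scaled by 1 size factor (0.934 to 1.11) for each library. This was inferred because 100% of them gave whole reads when divided by what 1 read is worth. The tolerance was 0.001 reads, but for larger counts it grew with the count, so that the largest counts could not fail. The deposited table also holds the authors' genotype means, log2 fold changes, p-values and adjusted p-values, which were not used.

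Groups and replicate numbers came from the sample titles. Whole reads were recovered (18749610 and 22673555 in WT, 20702980 and 22403163 in the libraries labelled KO), and FPKM was computed from them. The main comparison was limma 3.58.1 in R 4.3.3 (moderated test, trended prior variance) on log2(normalized count + 1), for the 22094 genes whose mean was 1 or more. On this scale changes of low genes are understated. Alternatives were edgeR 4.0.16 and DESeq2 1.42.0 on the recovered reads, other pseudocounts, filters and scalings, a replicate block, and leaving out each library. DESeq2 with a library left out and edgeR and DESeq2 with a block were chosen after seeing the data. Scripts were tested on simulated data. Libraries of 1 group differed by more than sampling noise (median chi-square per gene 8.04 in WT and 27.1 in the libraries labelled KO, against 0.455). Gene positions were those of GENCODE M21 on GRCm38.

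The 10 genes, the gene lists and the motifs were chosen with earlier results of these data known. Named genes were the 10, Tet1, Xist, the 3 genes nearest in profile to Ctss and Cst3, bordering genes, and of each list up to 4 with the largest change among those at an unadjusted p under 0.05, or else the 2 most abundant. Other genes were named outside this rule, among them Gfap, Tmem119, Mrc1, P2ry12, Lgmn, Ctse, Ctsw, Kng2 and Cst7. The endothelial genes it gave, Kdr and Flt1, are not described. Tables and plots used Python 3.11.15, numpy 2.4.6, pandas 2.3.3 and matplotlib 3.10.9.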

Additional observations from a re-analysis of the deposited data

How the results depend on the processing

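Ctss, Ctsh, Ctsz, Ctsb and Ctsc kept a negative log2 fold change under every setting run. So did Ctsk under every setting that tested it, the filter at a mean of at least 10 having removed it. With 1 library left out, the value ran in limma from -1.16 to 1.33 for Cst3, from -0.79 to 0.023 for Ctsa, from -0.25 to 0.33 for Ctsd and from -0.27 to 0.17 for Ctsl, and in DESeq2 from -1.16 to 1.31, -0.77 to 0.026, -0.24 to 0.33 and -0.24 to 0.18. Without labelled KO replicate 1, DESeq2 gave Ctsd -0.046. With all libraries, Ctsd turned to -0.018 in edgeR, -0.0096 with equal sums and -0.10 after quantile normalization. The cause was not tested. In limma with all libraries, members lower at an unadjusted p under 0.05 fell from 4 to 3 with the filter at a mean of at least 10. They were also 3 without the trend in the prior variance. Members lower at an unadjusted p under 0.05 numbered 4, and with 1 library left out 2 to 4 in limma (2 without WT replicate 2) and 3 to 6 in DESeq2 (6 without labelled KO replicate 1). DESeq2 without labelled KO replicate 2 had 1 higher, Cst3. Members past the adjusted threshold were 0 in limma and 3 in DESeq2, and 0 to 6 in DESeq2 with 1 library left out (1 without WT replicate 1, 0 without WT replicate 2, 4 without labelled KO replicate 2, 6 without labelled KO replicate 1). Over all genes, 0 passed in limma and 1088 in DESeq2, which had 279, 315, 1290.0 and 2627 without WT replicate 1, WT replicate 2, labelled KO replicate 2 and labelled KO replicate 1. At an unadjusted p under 0.05 there were 3032 genes, 1135 to 4846 in limma with 1 library left out and 1173, 1302 or more in DESeq2. Whether the replicate numbers pair the samples could not be decided. The correlation of deviations was -0.08, but with 2 libraries in each group it is a single value, the same for both pairs. With a replicate block 4 members and 1043 genes passed the adjusted threshold in DESeq2, Ctsb being added, and 1984 genes had an unadjusted p under 0.05 in edgeR.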

Other observations

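Of 14 other mouse cathepsin genes searched, 4 were listed. Ctsf, a cysteine cathepsin of many tissues, had 2356 and 2428 normalized counts in the WT pair, against 3168 and 664 in the pair labelled KO, which limma fitted as -0.72 on the log2 scale (SE 0.74, adjusted p = 0.699). Ctso had 1463 and 1531 in the WT pair, against 2229 and 520.1 in the pair labelled KO (-0.47, SE 0.69, limma adjusted p = 0.798). For both genes labelled KO replicate 1 was the highest and labelled KO replicate 2 the lowest of the 4 libraries, the same order at both ends as for Cst3. Ctse was at 3.21 normalized counts in labelled KO replicate 1 and at 0 in the others, and Ctsw was at 3.20, 0.92, 3.21 and 35.2, the last in labelled KO replicate 2.

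Of 22 other genes of the cystatin superfamily searched, 7 were listed. Cstb, the stefin that inhibits cathepsins inside cells, had 1036 and 1275 normalized counts in the WT pair, against 1228 and 1391 in the pair labelled KO, which limma fitted as 0.18 on the log2 scale (SE 0.29, adjusted p = 0.814). Cst6 had 11.7 and 6.44 in the WT pair, against 8.56 and 83.8 in the pair labelled KO, so that its higher mean rested on replicate 2. Kng2 was at 5.52 normalized counts or less and Cst7, Stfa1, Stfa3 and Ahsg at 2.76 or less in every library.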
